A study of Mus musculus with 5 samples.

Results

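Kupffer cell nuclei were drawn from single-nucleus RNA-seq libraries of mouse liver, and they were selected on measured values, by the transcripts each nucleus held. A nucleus was taken when it had at least 300 detected genes and less than 15% mitochondrial UMIs (unique molecular identifiers, 1 per captured RNA molecule), when it held no UMI of Hnf4a, Ptprb, Pkhd1 or Col3a1, which mark hepatocytes, endothelial cells, cholangiocytes and stellate cells, and when at least 2 of the 6 markers Clec4f, Timd4, Cd163, Cd5l, Vsig4 and Marco had a UMI. Nuclei with 2 or more summed UMIs of Gpnmb and Mmp12, genes of lipid-associated macrophages, were then taken out. This left 690 of the 57080 barcodes, with 85, 80 and 151 nuclei in chow 1, 2 and 3 and 244 and 130 in MASH 1 and 2. All mice were male, wild-type and of the C57BL6/J strain. The chow group stayed on regular chow, and the MASH group (metabolic dysfunction-associated steatohepatitis) received the AMYLIN liver NASH diet, in which fat gave 40 kcal%, fructose 20 kcal%, with cholesterol added at 2%, for 5 months from an age of 10 to 12 weeks. Nuclei came from snap-frozen liver and were sorted before droplet-based 3-prime library preparation. Whether a library was made from 1 mouse or from several is not stated, so the p-values below measure the spread between libraries only, which may be technical.

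Kupffer cells are the resident macrophages of the liver sinusoids. They take up particles, senescent red cells, lipoproteins and microbial products from portal blood, return iron to the circulation, and in the resting adult liver descend largely from embryonic precursors. Clec4f is a C-type lectin found on Kupffer cells, Timd4 a phosphatidylserine receptor for apoptotic cells that marks long-lived resident cells, Cd163 the receptor for haptoglobin-haemoglobin complexes, Cd5l a secreted scavenger protein, Vsig4 a receptor for complement C3 fragments, and Marco a class A scavenger receptor. In diet-induced steatohepatitis, cells recruited from the blood can enter the same niche and take on some of these markers.

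The 5 libraries held 35612373 to 49137377 UMIs, and the Kupffer nuclei together held 172500, 141847 and 248334 UMIs in chow 1, 2 and 3 and 465690 and 212387 in MASH 1 and 2. Their median depth was alike, from 1179 to 1357 UMIs per nucleus, while mitochondrial UMIs made up a median of 1.11% of a nucleus in MASH 2, 2.88% to 7.46% in the chow libraries and 7.22% in MASH 1. The mitochondrial limit removed 3645 barcodes from MASH 1 and 104 to 739 from each other library. No barcode was shared between libraries among the Kupffer nuclei. Chow 3 stood apart from the other chow libraries in several genes of these nuclei, given with the results they touch.

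The selection was checked against genes that it did not use. A list of 20 genes of macrophages in general (among them Adgre1, Csf1r, Cd68, Mertk and Spi1) took 4058, 3137 and 7043 CPM (counts per library scaled to one common total, without further scaling) in the Kupffer nuclei of chow and 4784 and 6728 in those of MASH, against 383 to 1000 CPM in all other nuclei of the same libraries. The step lay at the threshold of the rule. In chow 1 this list took 590 CPM in nuclei with none of the 6 markers, 737 with 1, 2763 with 2 and 5286 with 3 or more, and in MASH 1 the same 4 classes held 981, 1843, 4592 and 5340 CPM. In each of the 5 libraries the nuclei with 2 markers held more than 2 times the level of those with 1. The count of selected nuclei carries a background, because 2 or more markers were also found in 1.42% to 6.15% of nuclei with an Hnf4a UMI, which were deeper, at medians of 3599 to 5022 UMIs, and in 4.76% to 16.3% of nuclei with a Ptprb UMI. Nuclei with none of the 4 excluded genes showed 2 or more markers in 3.01% (chow 1), 1.97% (chow 2), 5.34% (chow 3), 7.21% (MASH 1) and 4.29% (MASH 2). In each library this share was above that of nuclei with an Hnf4a UMI and below that of nuclei with a Ptprb UMI.

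**Figure D1:**
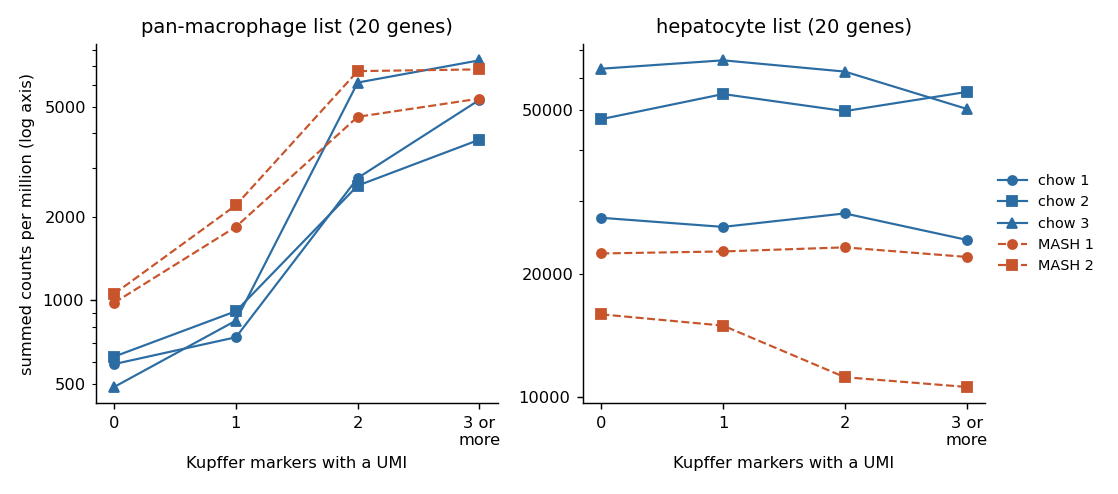
Summed levels in CPM on log axes of 20 macrophage genes (left) and 20 hepatocyte genes (right), none used in the selection, for nuclei with 0, 1, 2 and 3 or more of the 6 markers, with 1 line per library (blue chow, dashed orange MASH). In MASH 2 the macrophage genes go from 1056 CPM without a marker to 6709 CPM with 2 markers, and the hepatocyte genes show no such step in any library.

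RNA of other cell types was present in the Kupffer nuclei at levels close to those of their libraries. A list of 20 hepatocyte genes (Alb, Apoa1, Ttr and others) took 26070, 52317 and 53202 CPM in chow and 22878 and 11084 CPM in MASH, beside 26412, 38225 and 56544 CPM and 19710 and 15093 CPM in all other nuclei, and all 20 of its genes had UMIs in every library. Both MASH libraries thus lay below all chow libraries in hepatocyte RNA. Other lists were low: 12 endothelial genes took 233 to 387 CPM, 12 stellate genes 307 to 589 CPM, 10 cholangiocyte genes 48.3 to 170 CPM, 12 T and NK cell genes 0 to 113 CPM, 10 B and plasma cell genes 84.6 to 515 CPM, 10 neutrophil genes 96.6 to 177 CPM and 10 dendritic cell genes 56.4 to 207 CPM. Of these, cholangiocyte genes and erythroid genes separated the diets, the latter with 183 to 220 CPM in chow and 3487 and 8221 CPM in MASH. The part that RNA of other cells plays in the results below was not tested, and fewer hepatocyte transcripts per nucleus cannot be told apart from less free hepatocyte RNA in the suspension.

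The share of Kupffer nuclei overlapped between the diets under this selection, and did not when the Gpnmb and Mmp12 limit was dropped. They made up 1.02%, 0.657% and 1.39% of the nuclei passing the gene and mitochondrial limits in chow 1, 2 and 3, and 2.66% and 1.17% in MASH 1 and 2. The exact binomial (Clopper-Pearson) 95% intervals ran from 0.522% to 0.818% in chow 2, the lowest, and from 2.34% to 3.01% in MASH 1, the highest, and cover counting error only. MASH 2 lay between chow 1 and chow 3. The mean was 1.02% ± 0.366 (SD, n = 3) in chow and 1.91% ± 1.05 (SD, n = 2) in MASH, with p = 0.3 in a two-sided exact permutation test over libraries, in which 3 against 2 libraries cannot give less than 0.1. With the nuclei of the Gpnmb and Mmp12 limit kept, the means were 1.02% and 2.51%, a difference of 1.49 percentage points against 0.893, without overlap (exact permutation p = 0.1). With a mitochondrial limit of 5% the groups no longer overlapped, at means of 0.725% and 1.27% (exact permutation p = 0.2). What the Gpnmb and Mmp12 limit took out differed more. It removed 0 of 85, 0 of 80 and 0 of 151 marker-positive nuclei in chow, and 67 of 311 (21.5%) and 52 of 182 (28.6%) in MASH. All nuclei with 2 or more UMIs of Gpnmb and Mmp12 and none of the 4 excluded genes, here called Gpnmb/Mmp12 nuclei, numbered 4, 0 and 1 in chow and 241 and 275 in MASH, the removed nuclei included. Kupffer nuclei were 95.5%, 100% and 99.3% of Kupffer plus Gpnmb/Mmp12 nuclei in chow and 50.3% and 32.1% in MASH. Gpnmb and Mmp12 counts define both classes, so this ratio is a description and was not tested.

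**Figure D2:**
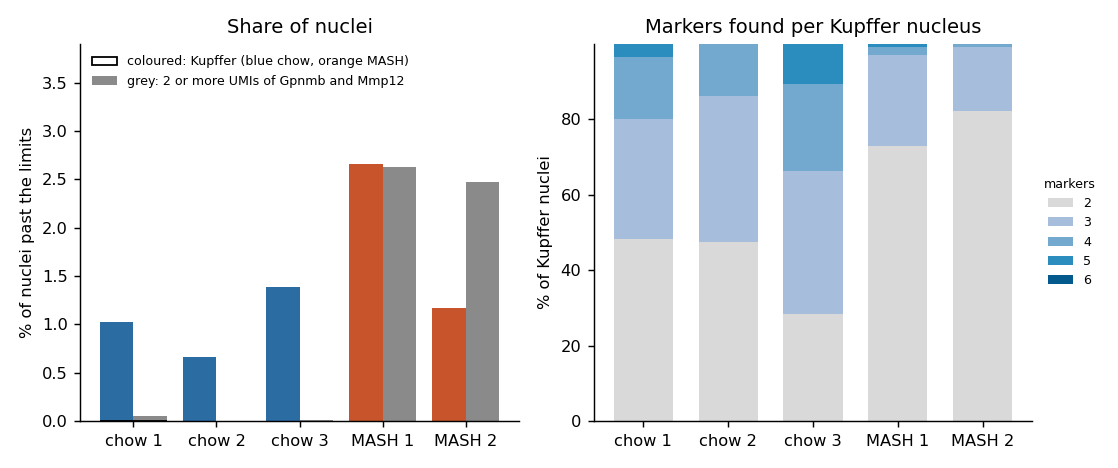
The left panel plots, per library, Kupffer nuclei (blue in chow, orange in MASH) and Gpnmb/Mmp12 nuclei (grey) as a percent of the nuclei passing the limits, and the right panel the percent of Kupffer nuclei with 2, 3, 4 or 5 of the 6 markers. Kupffer nuclei of MASH 2, at 1.17%, lie inside the chow range, grey bars reach 2.63% and 2.48% in MASH, and nuclei with 2 markers make up more of the MASH bars than of the chow bars.

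Each marker was compared between the diets in nuclei chosen with at least 2 of the other 5, so that its own level did not decide which nuclei were counted. Cd163 and Marco fell in MASH, Timd4 was lower without passing the test, and Clec4f, Cd5l and Vsig4 differed less. Levels here are CPM scaled with TMM factors, and changes are log2 fold changes with their standard error (SE). Cd163 (chromosome 6, 124304656 to 124330527, + strand, GRCm38) stood at 638, 695 and 1299 CPM in chow and at 31.1 and 0 CPM in MASH, from 86, 58 and 249 UMIs against 12 and 0. Every chow library lay far above both MASH libraries. The fitted change was -5.55 (SE 0.83, adjusted p = 0.0123), in a fit where 0.708% of 5087 genes were called. Marco (chromosome 1, 120474538 to 120505024, - strand) stood at 70.6, 107 and 159 CPM in chow and 10.3 and 0 CPM in MASH, a change of -4.01 (SE 0.74, adjusted p = 0.0372) where 0.674% of 5043 genes were called. It rested on 4 UMIs in MASH 1 and none in MASH 2. The Cd163 call was lost without chow 2 (adjusted p = 0.0551), and the Marco call without chow 1 (0.0509), chow 2 (0.104), MASH 1 (0.0594) or MASH 2 (0.142).

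Timd4 (chromosome 11, 46810800 to 46844332, + strand) was at 68.9, 137 and 271 CPM in chow and 26.1 and 20.0 CPM in MASH. The groups did not overlap, but the change of -2.75 (SE 0.64) had an adjusted p of 0.0945 in a fit where 0.615% of 4882 genes were called. Clec4f was at 2267, 1956 and 2599 CPM in chow and 1508 and 1199 CPM in MASH (log2 -0.75, SE 0.49, adjusted p = 0.716, where 0.47% of 2552 genes were called). Cd5l lay the other way, at 929, 857 and 1447 CPM in chow and 2057 and 1633 CPM in MASH (log2 0.77, SE 0.46, adjusted p = 0.687, where 0.234% of 2991 genes were called). Neither of these non-overlapping differences passed the test. Vsig4 overlapped between the diets, at 260.2, 140.4 and 385 CPM against 209 and 153 CPM (log2 -0.55, SE 0.48, adjusted p = 0.828, where 0.482% of 4356 genes were called). With the 6 markers in 6 separate fits, the p-values were adjusted within each fit and not over the markers.

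The same order was seen in the share of nuclei with a UMI. Cd163 was detected in 51.5%, 50.0% and 68.4% of chow nuclei chosen without it, and in 3.70% and 0% in MASH, where 0 of 130 nuclei allows a share of nuclei with a UMI of up to 2.31% (3 counts of the total). Hepatocyte nuclei, which should lack the gene and had median depths of 3550 to 4705 UMIs against 1194 to 1422 here, showed it in 0.864% to 1.18% in chow and in 0.213% and 0.0587% in MASH. Marco was detected in 8.33%, 8.86% and 12.8% of chow nuclei and in 1.23% and 0% in MASH. Timd4 was detected in 10.7%, 15.6% and 30.3% in chow and in 4.10% and 2.34% in MASH. After thinning each nucleus to 500 UMIs Cd163 was found in 27.9%, 23.4% and 41.4% in chow and 1.23% and 0% in MASH, so the difference was present at equal depth. Exact permutation tests gave p = 0.1 for Cd163 and Marco and p = 0.2 for Timd4 and Clec4f, before and after thinning. For Cd5l, detected in more nuclei in MASH (81.9% against 64.8% on average, without overlap), p was 0.1 before thinning and 0.2 after, and for Vsig4 it was 0.9 and 0.6.

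**Figure D3:**
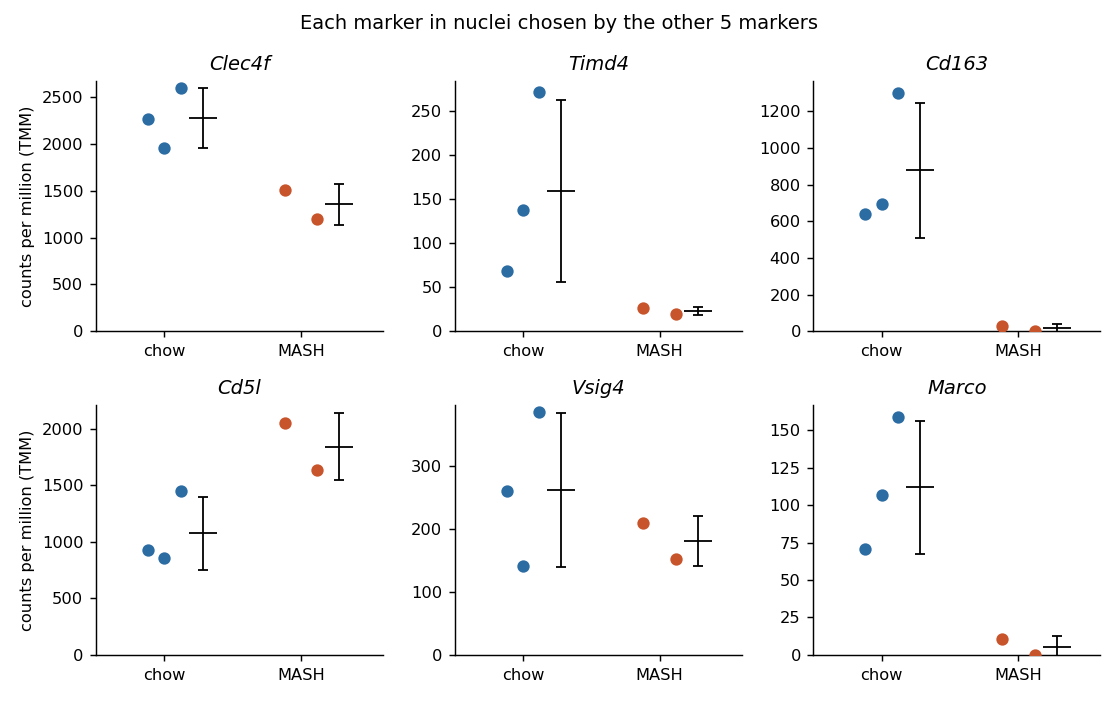
Level of each of the 6 markers per library (points), in CPM with TMM scaling, in nuclei chosen without that marker, with the mean and SD of each diet beside them. For Cd163 the chow libraries sit between 638 and 1299 CPM and the MASH libraries at 31.1 and 0 CPM, whereas for Vsig4 the MASH libraries lie inside the chow range.

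The upstream sequences of the 3 markers that were lowest in MASH relative to chow are shown as the stretch of DNA next to their starts, where motifs were searched. They are the 250 bases before the RefSeq start on GRCm38.p6, at chr6:124304401-124304650 on the + strand for Cd163, chr1:120505025-120505274 on the - strand for Marco and chr11:46810549-46810798 on the + strand for Timd4. Capitals mark a match to the sterol regulatory element TCACNCCAC, where N is any base.
Cd163: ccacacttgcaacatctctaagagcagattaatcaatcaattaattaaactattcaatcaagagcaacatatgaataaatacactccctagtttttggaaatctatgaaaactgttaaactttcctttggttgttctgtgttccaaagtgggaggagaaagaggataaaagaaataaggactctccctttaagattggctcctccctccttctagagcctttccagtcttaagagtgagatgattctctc
Marco: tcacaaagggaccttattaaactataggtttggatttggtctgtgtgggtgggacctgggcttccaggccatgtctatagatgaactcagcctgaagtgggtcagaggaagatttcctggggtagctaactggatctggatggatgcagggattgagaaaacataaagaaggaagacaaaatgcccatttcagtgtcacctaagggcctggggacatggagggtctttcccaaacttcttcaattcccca
Timd4: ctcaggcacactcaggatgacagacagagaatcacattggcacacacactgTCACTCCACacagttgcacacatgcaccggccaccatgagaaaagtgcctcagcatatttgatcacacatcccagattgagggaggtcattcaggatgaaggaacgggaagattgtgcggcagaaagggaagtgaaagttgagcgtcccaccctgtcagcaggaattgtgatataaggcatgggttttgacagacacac
The match in Timd4 began 199 bases before the start. Windows from 250 bases before to 50 after the start were searched on both strands for this element, the PU.1 core GAGGAAGT, the AP-1 site TGANTCA and the DR4 repeat of the liver X receptor. None of the 6 marker windows held the PU.1, AP-1 or repeat letters, and 1 held the sterol element, which is found in 1.24% of all 32851 mouse promoter windows. A match describes letters in a window and not a bound site.

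The combination of markers within a nucleus differed between the diets in the way their levels did, and is given as a description since the markers made the selection. At least 3 markers were seen in 51.8%, 52.5% and 71.5% of chow nuclei and in 27.0% and 17.7% of MASH nuclei. Nuclei with Clec4f and Cd5l and no other marker were 20.0%, 18.8% and 8.61% of chow nuclei and 57.8% and 65.4% of MASH nuclei. Those with Clec4f, Cd163 and Cd5l were 15.3%, 21.2% and 18.5% in chow and 1.23% and 0% in MASH. Cd5l and Clec4f also had the highest background of the 6, in 13.1% and 6.27% of hepatocyte nuclei of MASH 1, in 5.28% and 3.05% of those of MASH 2 and in 1.70% to 2.11% and 2.26% to 2.85% of those of chow, and the part of free RNA in the added MASH nuclei was not tested.

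The profile of the nuclei was read from the 15 genes with the highest ratio to all other nuclei, after adding 5 CPM to both levels, ranked by the lowest ratio in any library. Of these, 3 were markers of the rule (Clec4f, Vsig4 and Cd5l) and 12 were not. Kcna2, a voltage-gated potassium channel, was at 214, 77.5 and 129 CPM (unscaled) in chow and 228 and 527 CPM in MASH, beside 0.862 to 12.8 CPM in other nuclei. Trpm2, a calcium channel opened by oxidative stress, was at 441, 395 and 564 CPM in chow and 292 and 551 CPM in MASH. Siglec1, the sialic acid receptor of tissue macrophages, was at 104, 113 and 306 CPM in chow and 129 and 104 CPM in MASH. The remaining 9 were Adgb, Fyb, B430306N03Rik, E230029C05Rik, Pou2f2, Fgd2, Ptgs1 (cyclooxygenase 1), the adrenergic receptor gene Adrb1 and the inhibitory lectin gene Clec12a, and each was at least 8.30 times the other nuclei in all 5 libraries. None of the 12 was called between the diets. Clec12a was at 155, 149 and 176 CPM (TMM-scaled) in chow and 313 and 399 CPM in MASH, a difference of 1.14 (SE 0.39, adjusted p = 0.331), and Kcna2 differed by 1.33 (SE 0.48, adjusted p = 0.361).

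Promoter windows of 11 of these 12 genes were found, and 3 of the 11 (27.3%) held the PU.1 core, against 3.20% of all windows, while 1 held the AP-1 site, found in 7.81% of all. PU.1, the product of Spi1, is a transcription factor that defines the macrophage lineage. The Ptgs1 window is shown as one of the 3, at chr2:36230176-36230425 on the + strand of GRCm38.p6, with the PU.1 core in capitals.
Ptgs1: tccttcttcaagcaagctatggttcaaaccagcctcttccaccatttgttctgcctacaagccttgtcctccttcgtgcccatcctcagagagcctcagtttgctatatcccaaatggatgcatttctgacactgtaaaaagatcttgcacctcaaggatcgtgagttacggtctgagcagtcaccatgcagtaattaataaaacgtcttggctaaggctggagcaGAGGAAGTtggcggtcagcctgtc
The core began 24 bases before the start. With so few windows this is a description of the letters and no test was made.

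Between the diets, the genes called higher in Kupffer nuclei were few, and the genes called lower were mostly transcripts of hepatocytes. Of 4995 genes tested on counts summed per library, 7 were called higher in MASH (0.14%) and 25 lower (0.501%) at an adjusted p under 0.05. The 2 markers Cd163 and Marco were among the latter, which leaves 23 that the selection did not use. Without adjustment 473 genes had p under 0.05. The count of 32 calls was 7 without chow 2, 157 without chow 3, 15 without MASH 1 and 12 without MASH 2. Of all genes tested, 11.9% had both MASH libraries above all chow libraries and 12.0% had both below.

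Spp1, which encodes the secreted phosphoprotein osteopontin, was the gene whose rise held in all 19 alternatives tried. Its UMIs numbered 3, 2 and 2 in chow and 123 and 82 in MASH, in 83 of 244 and 52 of 130 nuclei, or 18.6, 17.6 and 9.49 CPM against 318 and 399 CPM. All chow libraries were low and both MASH libraries high (log2 4.56, SE 0.50, adjusted p = 0.0018). The gene was no higher here than in the other nuclei of MASH, at 264 and 386 against 264 and 665 CPM unscaled, and it rose in hepatocyte nuclei (4.12, SE 0.52) and endothelial nuclei (4.60, SE 0.57) as well. Rgs16, a regulator of G protein signalling, went from 1, 1 and 0 UMIs to 81 and 15, which is 39.8-fold in pooled CPM with a 95% counting interval of 10.7 to 334, and the fitted change was 4.94 (SE 0.82, adjusted p = 0.0216). Apoa4, an apolipoprotein of hepatocytes and gut, went from 1, 2 and 6 UMIs to 195 and 30 (log2 4.14, SE 0.67, adjusted p = 0.0216). Both were at higher levels in the hepatocyte nuclei of MASH (unscaled CPM): Rgs16 was at 10.8 to 32.3 CPM in chow and 412 and 531 CPM in MASH, where it was called, and Apoa4 at 10.2 to 86.3 CPM against 350 and 281 CPM, where it was not (adjusted p = 0.106). The Rgs16 and Apoa4 calls were lost with a mitochondrial limit of 5% and without chow 1, chow 2 or MASH 1, at adjusted p up to 0.664 and 0.177.

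Gm21188 (chromosome 13, 120034605 to 120052194, - strand), a protein-coding gene model without an established function, had no UMI in the Kupffer nuclei of chow and 32 and 30 UMIs in MASH. Those UMIs were spread over 25 and 24 nuclei with at most 3 in any nucleus. Against a floor of 3 counts over the chow group, the pooled level of 91.4 CPM was at least 17.1-fold higher (adjusted p = 0.0216). It was at 13.8 and 21.1 CPM in other nuclei of MASH and at 86.1 and 249 CPM in Gpnmb/Mmp12 nuclei. The call was lost without chow 2 (adjusted p = 0.0684), MASH 1 (0.0733) or MASH 2 (0.60), and when nuclei with genes of other cell types were left out (0.0523).

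The 3 remaining calls were haemoglobin genes, and they rested on 1 nucleus in each MASH library. Hbb-bs had 15, 13 and 17 UMIs in chow and 777 and 953 in MASH (log2 5.12, SE 0.56, adjusted p = 0.0018), Hba-a1 had 10, 6 and 12 against 436 and 290, and Hba-a2 had 3, 3 and 11 against 372 and 311. A single nucleus held 1554 of the 1618 haemoglobin UMIs of MASH 1 (96.0%) and another held 1725 of the 1739 of MASH 2 (99.2%). With these 2 nuclei left out, Hbb-bs was -0.77 and Hba-a1 -1.01 on the log2 scale, neither called, and 4 higher and 20 lower calls were left among 4969 genes. Hba-a1 and Hba-a2 are near-identical copies, so their separate counts are uncertain.

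The 23 lower calls outside the rule were of genes also found in the hepatocyte nuclei of chow. They fell outside the rule for naming genes, which asks for 2 times the level of other nuclei, as did Spp1, Rgs16 and Apoa4 among the rises, so those described here were chosen after their values were seen. They included 8 major urinary protein genes (among them Mup7, with 66, 171 and 264 UMIs in chow and 2 and 0 in MASH, and Mup11, with 144, 235 and 711 against 5 and 1), Serpina1e, Serpina3k, Cyp2c29, Cyp2c37, Cyp2c54, Slco1a1, Selenbp2, C8b, Elovl3 and Gnmt. Members of the Mup family are near-identical and reads can be split between them. None of the 23 was at 2 times the level of other nuclei in each chow library. All 23 were also lower in the hepatocyte nuclei of MASH, where all were called, and in endothelial nuclei, where 22 were called. The share of all genes called in those fits is not given here, so these counts are a description. Egfr, the receptor for epidermal growth factor, was at 415, 1073 and 503 CPM in chow and 72.4 and 48.6 CPM in MASH (log2 -3.41, SE 0.59, adjusted p = 0.0232), a call lost with 3 of 6 markers (0.20), a mitochondrial limit of 5% (0.114), and without chow 2 (0.0865), MASH 1 (0.154) or MASH 2 (0.260). Its antisense transcript Egfros had 31, 16 and 55 UMIs in chow and none in MASH, which against a floor of 3 counts over the MASH group is at least 41.0-fold lower. Whether counting used the strand is not given in the sources used here, so how reads were divided between these overlapping genes is not known. Cyp7b1, the oxysterol hydroxylase of the alternative bile acid pathway, was at 118, 343 and 275 CPM in chow and 20.7 and 14.6 CPM in MASH (log2 -3.70, SE 0.61, adjusted p = 0.0216), a call lost with 3 of 6 markers (0.142), a mitochondrial limit of 5% (0.130), thinning (0.0568), and without chow 2 (0.0885), MASH 1 (0.140) or MASH 2 (0.126). Gadd45g, a stress response gene, fell less here than in both other cell types, by 2.34 on the log2 scale (SE 0.46, adjusted p = 0.0492) against falls by 4.38 in hepatocyte nuclei and by 4.37 in endothelial nuclei. The call within Kupffer nuclei was lost in 11 alternatives, among them 3 of 6 markers (adjusted p = 0.262), thinning (0.334) and the removal of any library except chow 3 (0.122 to 0.366). The interaction terms were 2.03 (SE 0.52, adjusted p = 0.00829) and 1.98 (SE 0.54, adjusted p = 0.0459).

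**Figure D4:**
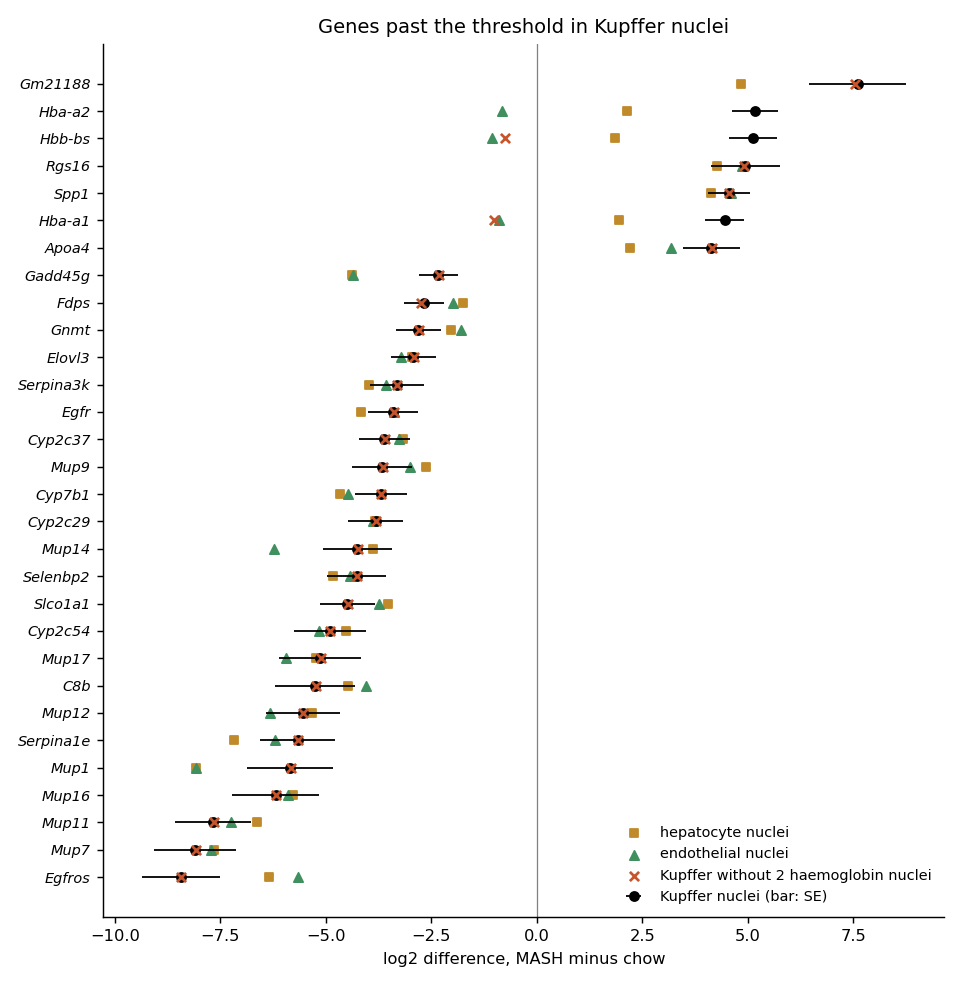
Log2 difference, MASH minus chow, for the genes called in Kupffer nuclei and not used by the rule (black points, bars are the SE), beside the same gene in hepatocyte nuclei (squares) and endothelial nuclei (triangles) where it was tested, and in Kupffer nuclei without the 2 haemoglobin-rich nuclei (crosses). The 23 lower calls lie below 0 in all 3 cell types, and the crosses of Hbb-bs and Hba-a1 lie at -0.77 and -1.01.

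The wider programme of the nuclei was described with 16 lists of genes of known function, of which 229 genes were tested. Of these, 2 were called, Spp1 and Fdps, while 45 had an unadjusted p under 0.05 and DESeq2 called 7. Over all 4995 genes tested, 32 were called, 473 had an unadjusted p under 0.05 and DESeq2 called 75. The median change of the 229 genes was -0.02, equal to that of all genes. The lists were chosen with earlier results of these data known, and their counts are given as a description. The filter on low counts can pass a gene on the counts of a single diet, which bears on the counts without overlap in each list. Of the uncalled genes given below, the 3 most abundant of each list were named by rule, and Fcna, Hmox1, Slc11a1, Lpl, Cd63, Trem2, Cd36, Idi1, Mylip, Srebf1, Scarb1, Axl, Ciita, Il1b, Cxcl1 and Klf2 were chosen after their values were seen.

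No gene of Kupffer cell identity outside the rule was called. Of 25 tested, 20 had a negative difference, 4 had both MASH libraries below all chow libraries and 2 above, which is close to the 12.0% and 11.9% of all genes, and the median was -0.37 (0 called by edgeR, 5 at unadjusted p under 0.05, and Fcna and Hmox1 called lower by DESeq2). Fcna, encoding the lectin ficolin A that Kupffer cells secrete, was at 161, 264 and 517 CPM in chow and 56.9 and 19.4 CPM in MASH (log2 -2.95, SE 0.64, adjusted p = 0.0744), and it was called without chow 3. Hmox1, the haem-degrading oxygenase, was at 186, 167 and 551 CPM in chow and 62.0 and 68.0 CPM in MASH (log2 -2.23, SE 0.60, adjusted p = 0.147). C6, a terminal complement component, was at 557, 721 and 627 CPM in chow and 289 and 248 CPM in MASH (log2 -1.23, SE 0.42, adjusted p = 0.331), and other nuclei held 215 to 544 CPM (unscaled) in chow and 166 and 135 CPM in MASH. The iron exporter Slc40a1 overlapped between the diets, at 1901, 1328 and 2355 CPM against 1215 and 1662 CPM. For Slc11a1, a phagosomal metal transporter, chow 3 was highest at 674 CPM, with 198 and 193 CPM in the other chow libraries and 90.5 and 170.1 CPM in MASH (log2 -1.49, SE 0.62, adjusted p = 0.452). Of the 17 genes of iron and haem handling that were tested, 3 lay below and 2 above without overlap.

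General macrophage genes stayed near the background of the comparison. Of 18 tested, 2 were above without overlap and none below, with a median of 0.18. Sirpa, an inhibitory receptor for CD47, was at 310, 361 and 418 CPM in chow and 628 and 778 CPM in MASH (log2 0.95, SE 0.41, adjusted p = 0.470), whereas Csf1r, the receptor for the growth factor of macrophages, was at 378, 325 and 503 CPM against 328 and 360 CPM. Receptors and mediators of niche signals (16 tested, 0 called) had a median of 0.14. Csf2rb, a cytokine receptor subunit, was at 149, 141 and 584 CPM in chow and 80.1 and 131 CPM in MASH, again with chow 3 apart. Of 20 genes of recruited monocytes, 4 passed the filter on low counts, and 0 were called by edgeR or DESeq2 or had an unadjusted p under 0.05. Of the 4, Fn1 was lower without overlap, at 873, 747 and 627 CPM in chow and 571 and 364 CPM in MASH, and Itga4, Samhd1 and Ifitm3 overlapped. Over the libraries the 20 genes summed to 1183 to 1483 CPM (unscaled) in Kupffer nuclei and to 1117 to 2018 CPM in other nuclei. Monocyte genes too low to be tested included Ccr2, the chemokine receptor of inflammatory monocytes, with 1 UMI in each chow library and 19 and 16 in MASH, and Cx3cr1, the fractalkine receptor, with 1, 0 and 0 against 13 and 9. S100a11 had 0, 0 and 3 UMIs against 16 and 3, and Ms4a4c had none against 7 and 3. Itgam, of the same list and also untested, did not rise, with 4, 5 and 8 UMIs against 8 and 5. Its levels were 23.2, 35.2 and 32.2 CPM (unscaled) in chow and 17.2 and 23.5 CPM in MASH. These were chosen after their values were seen, and the sums over all genes behind them were 172500, 141847 and 248334 UMIs in chow and 465690 and 212387 in MASH.

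Of 16 tested genes of lipid-associated macrophages, with the Gpnmb/Mmp12 nuclei taken out, 1 was called (Spp1), 8 had both MASH libraries above all chow libraries, none had both below, and the median was 0.58, and DESeq2 called Lpl besides Spp1. This compares with 11.9% of all genes above without overlap. The list had 28 genes, and the filter on low counts can pass a gene on its MASH counts alone, which bears on these counts. Among genes too low to be tested, Fabp5 had 19, 5 and 5 UMIs in chow and 3 and 3 in MASH. Fabp4, also untested, had 0, 0 and 1 against 18 and 8. Both were chosen after their values were seen. Lpl, lipoprotein lipase, was at 130, 35.2 and 323 CPM in chow and 881 and 1103 CPM in MASH (log2 2.55, SE 0.64, adjusted p = 0.125), and it was called in 4 of 19 alternatives. Cd63, a tetraspanin of late endosomes, was at 31.0, 17.6 and 19.0 CPM in chow and 116 and 112 CPM in MASH (log2 2.30, SE 0.49, adjusted p = 0.0734). Trem2, the lipid receptor that gives these cells their usual name, was at 18.6, 35.2 and 47.5 CPM in chow and 77.5 and 117 CPM in MASH (log2 1.45, SE 0.52, adjusted p = 0.349), and Cd36, a fatty acid and lipoprotein receptor, was at 55.7, 26.4 and 57.0 CPM against 165 and 156 CPM (log2 1.73, SE 0.45, adjusted p = 0.134). Apoe, at 5908, 10015 and 11688 CPM against 8229 and 6698 CPM, and the protease gene Ctsd, at 303, 290.2 and 817 CPM against 646 and 739 CPM, overlapped. Nuclei with 1 UMI of Gpnmb or Mmp12 stayed in the selection and numbered 58 in MASH 1, 33 in MASH 2 and 4 in chow 3. The part of those nuclei in these values was not tested. Levels in all other nuclei (unscaled CPM) were higher in MASH too: Lpl was at 5.24 to 8.29 CPM in chow and 111 and 171 CPM in MASH, Trem2 at 0.0461 to 0.570 CPM against 12.9 and 20.3 CPM, and Cd63 at 13.1 to 40.1 CPM against 76.9 and 89.5 CPM.

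Of 14 tested genes of cholesterol synthesis, 1 was called (Fdps), 12 had a negative difference, 7 had both MASH libraries below all chow libraries, and the median was -1.0. The shares over all genes tested were 12.0% below and 11.9% above without overlap. Fdps, farnesyl diphosphate synthase, was at 142, 183 and 82.2 CPM (unscaled) in other nuclei of chow and 36.8 and 50.6 CPM in those of MASH. It was also called lower in hepatocyte nuclei (log2 -1.76) and endothelial nuclei (-1.99). In Kupffer nuclei it fell from 167, 202 and 128 CPM to 25.8 and 24.3 CPM (log2 -2.67, SE 0.48, adjusted p = 0.0318). That call was lost in 6 alternatives, among them the removal of chow 1, chow 2, MASH 1 or MASH 2 (adjusted p up to 0.261). Idi1, the isomerase 1 step earlier, was at 61.9, 167 and 57.0 CPM against 7.75 and 19.4 CPM (log2 -2.82, SE 0.73, adjusted p = 0.14). Other nuclei of chow held Idi1 at 51.0 to 70.3 CPM (unscaled). Of 22 genes of the liver X receptor response and sterol handling, 5 were above and 2 below without overlap. Mylip, a ubiquitin ligase for the LDL receptor, was at 43.3, 26.4 and 57.0 CPM in chow and 98.2 and 194 CPM in MASH (log2 1.69, SE 0.49, adjusted p = 0.198). Srebf1, the regulator of fatty acid synthesis, was at 43.3, 70.3 and 23.7 CPM against 305 and 156 CPM (log2 2.42, SE 0.52, adjusted p = 0.0734; called by DESeq2), beside 30.2 to 67.9 CPM in other nuclei of chow and 378 and 335 CPM in those of MASH. The desaturase Scd1 overlapped, at 861, 3535 and 907 CPM against 5828 and 1910 CPM.

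No complement gene or uptake receptor was called. All 13 tested complement genes had a negative difference, 7 of them without overlap, with a median of -1.0 (6 at an unadjusted p under 0.05, 0 called by DESeq2). Of all genes tested, 12.0% had both MASH libraries below all chow libraries and 11.9% had both above. C3, the central component, was at 774, 1433 and 1144 CPM in chow and 579 and 306 CPM in MASH (log2 -1.33, SE 0.50, adjusted p = 0.393). Hepatocytes make it too, and other nuclei held 1075 to 1754 CPM of C3 in chow and 467 and 387 CPM in MASH. Of 21 tested scavenger and phagocytic receptors, 8 were above without overlap and none below, with 0 called by edgeR or DESeq2, 5 at an unadjusted p under 0.05 and a median of 0.17. Scarb1, the receptor for high-density lipoprotein, was at 217, 211 and 195 CPM in chow and 442 and 394 CPM in MASH (log2 1.01, SE 0.39, adjusted p = 0.403). Axl, a receptor for apoptotic cells, was at 248, 176 and 275 CPM against 305 and 394 CPM (log2 0.57, SE 0.41, adjusted p = 0.806), and its relative Mertk overlapped at 514, 290.2 and 826 CPM against 538 and 851 CPM.

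Antigen presentation and interferon genes held no call by edgeR or DESeq2. Of 16 tested presentation genes, 2 were above without overlap and none below, with a median of 0.31. Ciita, the master regulator of class II genes, was at 24.8, 26.4 and 52.2 CPM in chow and 93.0 and 238 CPM in MASH (log2 2.15, SE 0.55, adjusted p = 0.134), while the invariant chain gene Cd74 overlapped at 316, 651 and 1215 CPM against 892 and 894 CPM. Of 17 tested interferon response genes, 5 were above without overlap and none below, beside 11.9% and 12.0% of all genes tested. Their median was 0.19, and 4 had an unadjusted p under 0.05 in the edgeR test. Among the 5 was Ifi44, with 2, 0 and 7 UMIs in chow and 26 and 22 in MASH. The filter on low counts can pass such a gene on its MASH counts alone. Inflammatory mediators had a median of -0.24 over 15 tested genes, with 2 below without overlap and 0 called by edgeR (2 at unadjusted p under 0.05, Cxcl1 called lower by DESeq2). Il1b was at 86.7, 106 and 370.3 CPM in chow and 59.4 and 48.6 CPM in MASH (log2 -1.81, SE 0.64, adjusted p = 0.346), and the chemokine gene Cxcl1 was at 180, 141 and 717 CPM against 43.9 and 38.9 CPM (log2 -3.06, SE 0.74, adjusted p = 0.11). Cxcl1 was also highest in chow 3 among other nuclei, at 2415 CPM. Immediate early genes, which respond within minutes to a stimulus or to handling of the tissue, had a median of -1.10 over 10 tested, with 3 below and 1 above. Klf2 was at 105 CPM in chow 1, 106 in chow 2 and 347 in chow 3, and at 25.8 and 48.6 CPM in MASH (log2 -2.40, SE 0.65, adjusted p = 0.15). Their summed level was 1241, 1043 and 3475 CPM (unscaled) in chow, with chow 3 far above, and 1155 and 946 CPM in MASH.

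Lysosomal genes had a median of 0.09 over 22 tested, with 3 above without overlap and none below, beside 11.9% and 12.0% of all genes tested. Psap, the precursor of the saposins that assist lipid breakdown, was at 811, 695 and 855 CPM in chow and 1520 and 1721 CPM in MASH (log2 1.04, SE 0.43, adjusted p = 0.444). Of 25 cell cycle genes, 1 passed the filter. Mki67, a marker of proliferation, had 2, 1 and 2 UMIs in chow and 38 and 11 in MASH, in 20 and 6 nuclei (log2 2.85, SE 0.71, adjusted p = 0.125). The 25 genes summed to 122, 70.5 and 137 CPM (unscaled) in chow and to 502 and 334 CPM in MASH, so MASH was above chow in both libraries, as it was in other nuclei, with 34.7 to 59.7 CPM against 173 and 152 CPM.

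**Figure D5:**
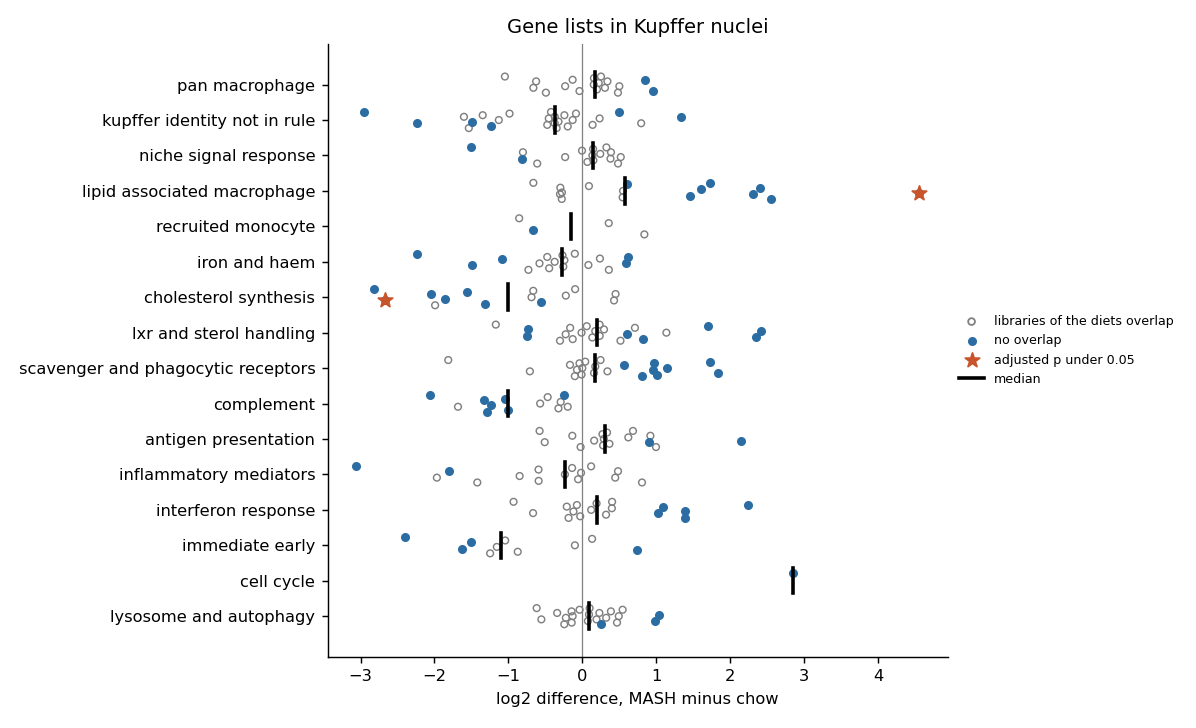
Log2 change from chow to MASH of every tested gene of the functional lists, 1 point per gene, with the median of each list as a bar, filled points where the diets did not overlap and stars for the called genes. The lists of cholesterol synthesis, complement and immediate early genes have medians of -1.0, -1.0 and -1.10, and that of lipid-associated macrophages 0.58.

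Within MASH, Kupffer nuclei were set beside the Gpnmb/Mmp12 nuclei of the same libraries as a description, since both were chosen by these counts. Clec4f was at 1033 and 1394 CPM (unscaled) in Kupffer nuclei and at 258 and 236 CPM in Gpnmb/Mmp12 nuclei, and Cd5l at 1336 and 1700 against 833 and 824 CPM. Slc40a1 was at 1009 and 1610 against 611 and 649 CPM. Adgb, at 116 and 137 against 17.2 and 58.4 CPM, and C6, at 240.5 and 240.1 against 96.8 and 64.3 CPM, were on the Kupffer side in both libraries too. Psap was on the other side, at 1263 and 1667 against 2180 and 2689 CPM, as were Trem2, at 64.4 and 113 against 129 and 253 CPM, and Cd63, at 96.6 and 108 against 211 and 222 CPM. Lpl, at 732 and 1069 against 859 and 1629 CPM, lay on that side as well, while Spp1, at 264 and 386 against 241 and 538 CPM, had no common direction.

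Finally, the diet difference of Kupffer nuclei was compared with that of hepatocyte and of endothelial nuclei through the interaction of cell type and diet, with the library as a block. Against hepatocyte nuclei 40 of 13451 genes were higher (0.297%) and 213 lower (1.58%), and against endothelial nuclei 13 of 9586 were higher (0.136%) and 68 lower (0.709%). Among called genes at 2 times the level of other nuclei, the largest positive terms were those of the haemoglobin genes, and without the 2 nuclei named above those against hepatocyte nuclei were negative, at -2.47 for Hbb-bs, -2.41 for Hba-a2 and -3.33 for Hba-a1. Hk2, the hexokinase of non-hepatic tissues, had a term of -6.73 (SE 0.48, adjusted p = 3.64e-41) against hepatocyte nuclei. It rose there from 0.309, 0.511 and 0.628 CPM to 42.9 and 35.97 CPM (scaled within that fit), whereas in Kupffer nuclei it was at 81.2, 75.8 and 570.3 CPM in chow and 137 and 171 CPM in MASH. Against endothelial nuclei Hoxb4 had a term of 3.76 (SE 0.71, adjusted p = 0.000445), with 0, 1 and 2 UMIs in the Kupffer nuclei of chow and 24 in those of each MASH library. In endothelial nuclei it was at 170, 97.8 and 69.1 CPM in chow and at 94.8 and 122 CPM in MASH, so the diets overlapped there. Within Kupffer nuclei alone Hoxb4 differed by 3.71 (SE 0.84, adjusted p = 0.0932). The leptin receptor gene Lepr had a term of -4.41 (SE 0.66, adjusted p = 2.01e-06), with 4, 7 and 65 UMIs in chow and 5 and 1 in MASH, so that chow 3 held most of them. Without chow 3 the term was -2.77 and not called (adjusted p = 0.0954). Pirb and Lilr4b, immunoglobulin-like receptors of myeloid cells, had terms of -4.25 (SE 0.66) and -4.24 (SE 0.53). Within Kupffer nuclei alone they differed by -1.48 (SE 0.63, adjusted p = 0.470) and -1.96 (SE 0.77, adjusted p = 0.418), neither called. In endothelial nuclei Pirb had 2, 0 and 2 UMIs in chow and 7 and 31 in MASH, and Lilr4b had 5, 1 and 3 against 12 and 44. Both had chow 3 as their highest library in Kupffer nuclei, Pirb with 188 UMIs beside 32 to 49 in the others and Lilr4b with 516 beside 44 to 86.

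Last, nuclei with a Timd4 UMI were compared with nuclei without one among those chosen with at least 2 of the other 5 markers. The fit kept the libraries with at least 10 nuclei on each side, which were chow 2 (12 and 65 nuclei), chow 3 (44 and 101) and MASH 1 (10 and 234), and dropped chow 1 and MASH 2. Of 1829 genes other than Timd4, edgeR called 0 (0.0%), with 27 at an unadjusted p under 0.05. Marco and Cd163 helped to choose the nuclei. Marco was at 320, 269 and 141 CPM in nuclei with Timd4 and at 110, 185 and 10.4 CPM in those without, and Cd163 at 1119, 1701 and 282 against 866, 1573 and 24.2 CPM. The values of these markers are a description.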

How the data were processed

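Single-nucleus UMI counts were used as deposited, as unnormalized gene by barcode matrices of 32285 genes. The submitters' processing notes name Cell Ranger 8.0.1 and GRCm38, and per the study's methods intronic reads were left out. Counts of the selected nuclei were summed per library and tested with edgeR 4.0.16 in R 4.3.3 (filterByExpr, TMM scaling, quasi-likelihood test, Benjamini-Hochberg adjustment over all genes tested, threshold 0.05). Standard errors were the fold change divided by the square root of its F statistic. DESeq2 1.42.0 was an alternative. Nuclei were handled in Python 3.11.15 with scanpy 1.11.5, and scipy 1.17.1 gave exact permutation tests and intervals. The scripts were tested on simulated counts with known changes. The diet test called 1 of 67 genes changed 2-fold, 33 of 67 changed 4-fold and 56 of 66 changed 8-fold. The interaction test called 0 of 67, 1 of 67 and 16 of 66. A gene that was not called may therefore still differ. The Timd4 comparison was not simulated. Scrublet's automatic threshold called 0 to 3 doublets per library, so doublets were kept and the highest scores were left out as an alternative. Of 470 list genes, 468 were in the files. Gene coordinates are from GENCODE vM21. The members of the selection and the gene lists were chosen with earlier results of these data known. Named genes were the markers, called genes with at least 2 times the level of other nuclei in each library of the higher diet, called and the 3 most abundant uncalled genes of each list, the 5 largest interaction terms in each direction at that level, and the 15 genes of highest ratio to other nuclei. Alternatives changed the scaling, the filter, the test, the limits on nuclei, the depth and the libraries. Between libraries, chi-square over degrees of freedom was 4.46 to 9.00, above sampling noise. Differences between single nuclei also raise this value, so it cannot show whether libraries were technical replicates.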

Additional observations from a re-analysis of the deposited data

Results flagged for a closer look

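The diet difference differed between Kupffer nuclei and another cell type, by the interaction term of edgeR's quasi-likelihood test, for the following genes, which are the largest terms among called genes at 2 times the level of other nuclei. Against hepatocyte nuclei the 5 largest positive terms (log2) were 4.80 for Hbb-bs, 4.41 for Hba-a2, 3.96 for Hba-a1, 3.07 for Gm3734 and 2.93 for Isyna1. The haemoglobin terms rested on 1 nucleus in each MASH library and were negative without those nuclei. The 5 largest negative terms were -6.88 for Trpm4, -6.73 for Hk2, -5.93 for Sectm1a, -5.41 for Cnrip1 and -5.13 for Exoc3l4. Apart from Hk2 and the haemoglobin genes these rest on few UMIs in Kupffer nuclei, with 1 to 7 of Trpm4, 1 to 9 of Gm3734, 1 to 7 of Isyna1, 1 to 6 of Sectm1a, 0 to 7 of Cnrip1 and 0 to 4 of Exoc3l4 in any library. Several of these calls were lost in alternatives. Trpm4 (adjusted p = 0.145) and Sectm1a (0.0640) were lost with the replicate block alone, Gm3734 in 6 alternatives, Isyna1 in 4, and Cnrip1 and Exoc3l4 in 6 each, with the removal of chow 3, MASH 1 or MASH 2 among those of all 4 genes.

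Against endothelial nuclei the 5 largest positive terms were 5.80 for Hbb-bs, 5.63 for Hba-a2, 4.86 for Hba-a1, 3.76 for Hoxb4 and 2.17 for Gatm. The haemoglobin terms rested on 1 nucleus in each MASH library. Without those nuclei they were 0.054 for Hbb-bs, 0.585 for Hba-a2 and -0.42 for Hba-a1, none of them called. The 5 largest negative terms were -4.41 for Lepr, -4.35 for Csf3r, -4.25 for Pirb, -4.25 for Fcgr4 and -4.24 for Lilr4b. Csf3r, the receptor for granulocyte colony-stimulating factor, had 23, 12 and 42 UMIs in the Kupffer nuclei of chow and 38 and 23 in MASH, and in endothelial nuclei 2, 0 and 1 in chow and 14 and 33 in MASH. The Kupffer nuclei of chow 3 held the most UMIs of Lepr, Pirb, Fcgr4 and Lilr4b of any library. The Lepr call was lost without chow 3, where the term was -2.77 (adjusted p = 0.0954), the Gatm call without MASH 2 (0.159), and the Fcgr4 call with the replicate block (0.489) and without chow 1 (0.0830), chow 3 (0.611), MASH 1 (0.230) or MASH 2 (0.0833).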

How the results depend on the processing

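The count of 32 calls between the diets was 182 with no filter on low counts, 75 with DESeq2, 5 with 3 of 6 markers, 7 with a mitochondrial limit of 5%, 17 after thinning to 500 UMIs, and 7 to 157 with 1 library left out. With the replicate block it was 121, against hepatocyte nuclei 93 in place of 253, and 1 marker (Cd163) was called in place of 2. Whether the replicate numbers form a pairing is not known. Deviations from the diet mean correlated at 0.0545 and -0.332 between same-numbered libraries. The deviations of the 2 MASH libraries mirror each other, so each chow library correlates with them at opposite signs. These values therefore cannot decide it. Leaving out 1 library gave 85 to 288 calls against hepatocyte nuclei, 36 to 69 in place of 81 against endothelial nuclei, 0 to 2 markers called, and 0 to 3 genes in the Timd4 comparison, where no filter gave 1. The comparison of Timd4 classes within depth limits was not run, as too few libraries held enough nuclei. The difference in share of 0.893 percentage points was -0.159 with 3 of 6 markers, -25.1 as a share of marker-positive nuclei, and 0.149 to 1.64 with 1 library left out. Without the 2 haemoglobin-rich nuclei, an alternative chosen after seeing the data, Hbb-bs was -0.77 and Hba-a1 -1.01, and their terms against hepatocyte nuclei were -2.47 (Hbb-bs), -2.41 (Hba-a2) and -3.33 (Hba-a1), with -0.42 for Hba-a1 against endothelial nuclei. Adgb was 0.080 with 3 of 6 markers. With 1 library left out Cd74 ran from -0.071 to 0.90 and Mertk from -0.0065 to 0.79. With 80 to 244 nuclei per library, genes with few UMIs could not be compared.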
